A study of Mus musculus with 9 samples.

Results

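The 9 genes described here encode GTPases that interferon induces in mouse cells. They are Igtp, Irgm1, Irgm2, Iigp1 and Ifi47 of the immunity-related GTPase (IRG) family and Gbp2, Gbp3, Gbp7 and the predicted gene Gm43302 of the guanylate-binding protein (GBP) family. They were chosen by symbol, with results of these data known, among them high levels in AAV-Cre mice labelled obese, so every comparison that contains those mice is given as a description. All 9 had an entry among the 13588 of the deposited table, and all 9 passed the filter on low values, as did 13506 entries in total.

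Adult hypothalamic deletion of the small nucleolar RNA cluster Snord116 was produced by injecting adeno-associated virus (AAV) bilaterally into the mediobasal hypothalamus of adult male Snord116 fl mice (B6(Cg)-Snord116tm1Uta/J, strain C57/BL6). Cre recombinase came from AAV7-CAG-oCre, and controls received GFP from AAV7-CMV-GFP, so the viruses differed in promoter as well as in cargo. The paper also gives a higher titer for the Cre virus than for the GFP virus. Both promoters are active in many cell types, and all 9 mice, controls included, carried the floxed allele. Brains were frozen 10 weeks after injection. The region was laser-captured where Cre was seen in neighboring sections, or at the matching place in controls, and RNA of each mouse was sequenced as its own library.

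There were 3 mice in each of the groups AAV-GFP, AAV-Cre labelled obese and AAV-Cre labelled nonobese. The sample labels contradict each other on the AAV-Cre subsets. The 3 AAV-Cre samples with "obese" in their title carry a nonobese weight label, and the 3 without it are marked obese by weight. Here the weight label gives each subset its name, and all directions between them depend on that choice. Libraries held between 3929672 and 5766994 reads on the listed entries. Values are normalized signal, which the authors scaled to library size and composition, and 3 reads correspond to a signal of 0.525 to 0.786. Cre had at most 5 reads in each AAV-GFP library and 1011 or more in each AAV-Cre library, and Gfp had 0 reads in all 6 AAV-Cre libraries, which matches the virus on each label. Within the mice labelled obese, the signal of Cre was 1330, 8557 and 234.9 in replicates 1, 2 and 3.

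IRG and GBP proteins are made in response to interferon-γ and, less strongly, to type I interferons. Interferon-γ acts through its receptor and the kinases JAK1 and JAK2, which activate transcription factors that bind GAS elements in DNA. Further factors such as IRF1 are induced and bind interferon-stimulated response elements (ISRE). Inside the cell, Irgm1, Igtp (also called Irgm3) and Irgm2 sit on host membranes and hold the other IRG proteins in check. Effectors such as Iigp1 and the GBPs load onto vacuoles that enclose parasites or bacteria, and proteins of the ATG8 conjugation system guide them there. In brain, microglia, astrocytes, endothelial cells and infiltrating leukocytes can all make these proteins, so their mRNA is a common readout of interferon exposure.

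Positions are those of GRCm38 with GENCODE M21. Gbp7 (ENSMUSG00000040253, chr3:142530342-142550149), Gbp3 (ENSMUSG00000028268, chr3:142560026-142573209) and Gbp2 (ENSMUSG00000028270, chr3:142620602-142638008) follow each other on the plus strand within 107.7 kb. Irgm1 (ENSMUSG00000046879, chr11:48861968-48871683) is on the minus strand of chromosome 11. Ifi47 (ENSMUSG00000078920, chr11:49076587-49096974), Igtp (ENSMUSG00000078853, chr11:58199556-58207591) and Irgm2 (ENSMUSG00000069874, chr11:58199618-58222782) are on its plus strand. Gm43302 (ENSMUSG00000079362, chr5:105214907-105293695) is on the minus strand of chromosome 5. Of the exonic bases of Gm43302, 81.6% are shared with Gbp6 or Gbp10 on the same strand, neither of which had an entry, so its reads cannot be assigned among the 3. The shared part was 11.3% for Gbp7 (with Gm43802), 8.01% for Igtp (with Irgm2) and 4.39% for Irgm2 (with Igtp). Members of these families resemble each other in sequence, and how reads common to several were counted is not given in the sources used here.

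The DNA before the transcription start sites is shown because the members were high in the same libraries. RefSeq start sites on GRCm38.p6 were found for 7 of the 9 genes, with a second one for Gbp3, and the 250 bases before each were searched on both strands for an ISRE core (GAAA, any 2 bases, GAAA) and for a GAS (TTC, any 3 bases, GAA). The ISRE core was present before 6 of the 7 genes, all but Ifi47, and 2.98% of 32851 such windows in the genome hold it. All its matches lay between 64 and 15 bases before the start site. A GAS was present before Gbp7 (at 2 places), Igtp and Irgm2, against 7.02% of windows. In the following sequences, written 5′ to 3′ on the strand of the gene, capitals mark the matches to either motif, and an ISRE core on the opposite strand reads TTTC, any 2 bases, TTTC.
Igtp, chr11:58199306-58199555, plus strand: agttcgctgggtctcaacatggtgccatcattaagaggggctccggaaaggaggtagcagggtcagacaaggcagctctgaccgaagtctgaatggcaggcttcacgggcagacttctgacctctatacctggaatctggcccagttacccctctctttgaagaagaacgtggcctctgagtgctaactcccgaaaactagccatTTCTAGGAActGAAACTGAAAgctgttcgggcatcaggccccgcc
Irgm2, chr11:58214727-58214976, plus strand: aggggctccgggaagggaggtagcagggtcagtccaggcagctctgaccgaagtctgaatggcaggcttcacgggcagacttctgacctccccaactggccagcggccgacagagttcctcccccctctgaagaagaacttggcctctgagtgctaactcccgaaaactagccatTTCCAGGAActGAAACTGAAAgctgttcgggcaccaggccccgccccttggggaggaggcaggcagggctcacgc
Gbp7, chr3:142530086-142530335, plus strand: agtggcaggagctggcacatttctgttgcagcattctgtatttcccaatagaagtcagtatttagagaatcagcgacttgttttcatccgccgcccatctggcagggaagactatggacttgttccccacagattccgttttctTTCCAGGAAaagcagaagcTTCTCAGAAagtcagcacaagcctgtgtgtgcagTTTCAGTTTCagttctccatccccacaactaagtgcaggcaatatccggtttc
Gbp3, chr3:142559989-142560018, plus strand: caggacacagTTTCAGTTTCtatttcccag
Gbp2, chr3:142620594-142620623, plus strand: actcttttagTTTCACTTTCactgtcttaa
Irgm1, chr11:48871431-48871460, minus strand: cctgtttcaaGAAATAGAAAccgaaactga

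Igtp and Irgm2 had the GAS directly before the ISRE core, 2 bases apart, and their windows were 68.9% identical. No other pair of the 7 exceeded 55.4%. Gbp3 and Irgm1 each had 2 ISRE matches that overlap, of which the first is in capitals. Among entries tested, 3.24% of the 10187 with a start site had an ISRE core. It was present before 4 of 7 other IRG and GBP genes and 5 of 9 type I interferon effector genes, and before 0 of 10 genes of vacuole targeting and ATG8 conjugation. It was present before 2 of 13 interferon-γ targets outside the GTPases and before 1 of 7 genes in each receptor and signalling list. Except for Igtp and Ifi47, the RefSeq start sites differ from the 5′ ends of the GENCODE spans given above. All 250 bases of the Irgm1 window are in GENCODE exons, as are 61 of the Gbp2 window and 18 and 178 of the windows of Gbp3, and the Irgm2 window is inside the GENCODE span of Irgm2 but in no exon. A match describes letters only, and no binding was measured here.

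**Figure D1:**
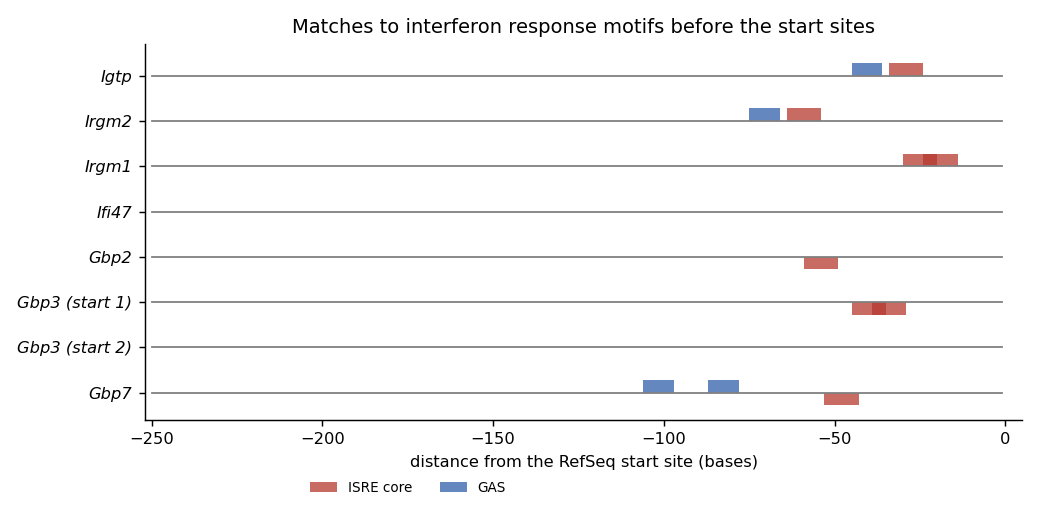
Positions of ISRE core (red) and GAS (blue) matches in the 250 bases before each RefSeq start site, with distance in bases on the horizontal axis and 1 line per window. Boxes above a line are matches on the strand of the gene and boxes below it are matches on the opposite strand, and all ISRE matches lie between 64 and 15 bases before the start.

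All 9 GTPases were highest in the same pair of libraries, replicates 1 and 3 of the AAV-Cre mice labelled obese. In each of these, every member was above all 7 other libraries, which held for 9.34% of all entries tested. Their reads summed to 10699 and 7663 in these 2 libraries, and to between 109 and 495 in the others. That is 0.246% and 0.185% of all reads there, against 0.00377% to 0.00993% in AAV-GFP mice. In bulk tissue a difference in the number of cells of a type and a difference in mRNA per cell cannot be told apart. PCR reads without molecular identifiers are not independent molecules, so intervals and floors cover counting error only.

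Of the IRG proteins that regulate the family, Igtp had a signal of 7.73, 8.81 and 6.80 in AAV-GFP mice, 309.1, 7.26 and 220.5 in the obese-labelled mice and 1.40, 0.786 and 3.41 in the nonobese-labelled mice. Replicate 2 labelled obese was within the AAV-GFP range, and all 3 mice labelled nonobese were below it. Irgm1, which is also needed for autophagy and survival of immune cells, had a signal of 18.0, 8.04 and 5.24 in AAV-GFP mice, 250.2, 1.36 and 192.4 in the obese-labelled mice and 11.9, 7.60 and 12.6 in the nonobese-labelled mice. It was the only member for which replicate 2 labelled obese (6 reads) was below every AAV-GFP mouse. Irgm2 gave a signal of 10.2, 8.43 and 0.777 in AAV-GFP mice, 173.0, 2.72 and 96.9 in the obese-labelled mice and 12.9, 0 and 7.90 in the nonobese-labelled mice. All 3 nonobese mice were within the AAV-GFP range for Irgm1, while for Irgm2 replicate 1 was above it, replicate 3 within it and replicate 2 below it.

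The other IRG members were high in the same pair of libraries. Iigp1 (ENSMUSG00000054072, chr18:60376027-60392634, plus strand), a GTPase that coats and disrupts parasite vacuoles, gave a signal of 8.73, 8.62 and 0 in AAV-GFP mice, 223.9, 2.50 and 185.9 in the obese-labelled mice and 0.175, 1.31 and 1.71 in the nonobese-labelled mice. Ifi47, also called Irgd, had 0, 5 and 0 reads in AAV-GFP mice, 270, 31 and 199 in the obese-labelled mice and 0 in all 3 mice labelled nonobese. It was the member with the fewest reads in AAV-GFP mice, and replicate 2 labelled obese exceeded all AAV-GFP mice, with a signal of 7.04 against at most 0.957.

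The GBPs, large GTPases that assemble on pathogen membranes, had the same shape. Gbp2 had a signal of 1.25, 9.77 and 3.30 in AAV-GFP mice, 349.9, 7.26 and 332.7 in the obese-labelled mice and 1.05, 0.524 and 7.47 in the nonobese-labelled mice. Gbp3 had 10.97, 18.8 and 11.7, then 381.4, 20.4 and 343.8, then 5.95, 12.8 and 11.9 in the same order, so that replicate 2 labelled obese was just above the AAV-GFP range. Gbp7, whose product also acts in the assembly of the phagocyte oxidase, had a signal of 18.2, 16.3 and 8.55 in AAV-GFP mice, 354.6, 14.5 and 162.9 in the obese-labelled mice and 10.1, 0 and 2.35 in the nonobese-labelled mice. Gm43302 had 0.748, 15.1 and 0 in AAV-GFP mice, 304.4, 20.4 and 199.1 in the obese-labelled mice and 1.05, 5.50 and 5.97 in the nonobese-labelled mice. It was spread over a wide range in AAV-GFP mice, where the SD of log2(signal + 1) was 2.12 (n = 3), against 0.40 for Gbp3 and 0.17 for Igtp.

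**Figure D2:**
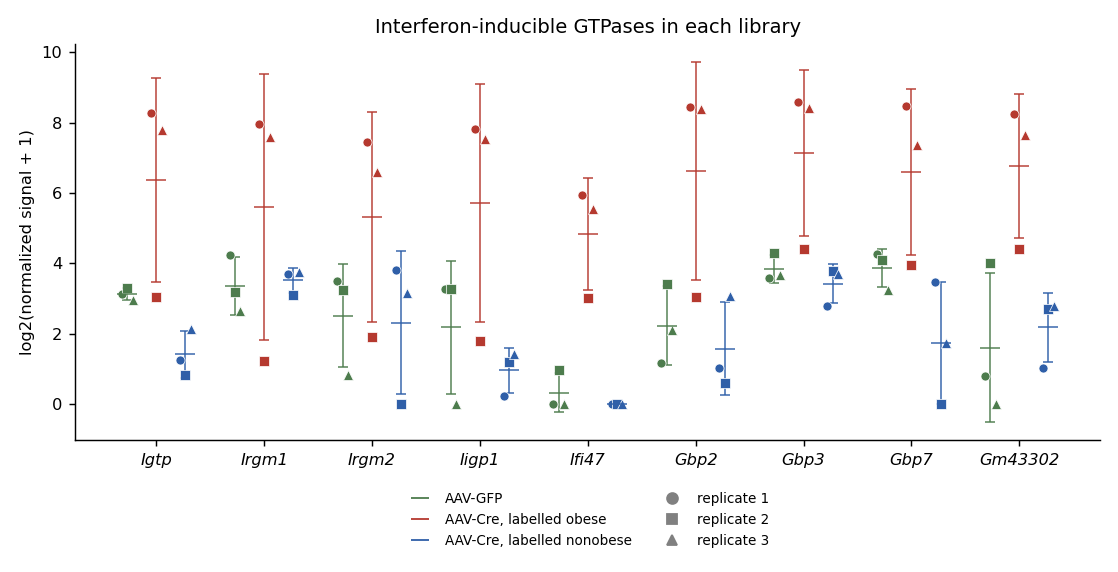
Log2(normalized signal + 1) of the 9 GTPases (vertical axis) in AAV-GFP mice (green) and AAV-Cre mice labelled obese (red) or nonobese (blue), with a symbol per library (circle, square and triangle for replicates 1, 2 and 3) and the mean ± SD of 3 mice. For every gene the red circle and triangle are above all other points. The red square is near the green and blue points, apart from Ifi47, where it is clearly above them, and Irgm1, where it is below them.

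To compare levels between genes, signal was divided by exonic length in kilobases. In replicate 1 labelled obese the order was Igtp (152.9), Gbp2 (139.1), Gbp3 (116.8), Gm43302 (70.6), Gbp7 (63.2), Irgm2 (46.9), Irgm1 (43.1), Iigp1 (38.4) and Ifi47 (24.6). In replicate 3 it was Gbp2 (132.2), Igtp (109.0), Gbp3 (105.3), Gm43302 (46.2), Irgm1 (33.1), Iigp1 (31.9), Gbp7 (29.0), Irgm2 (26.3) and Ifi47 (18.7). Igtp, Gbp2 and Gbp3 were the highest and Ifi47 the lowest in both, and the place of Gm43302 includes reads that may belong to Gbp6 or Gbp10. In replicate 2 all 9 were between 0.234 and 6.26. Over the 3 mice the mean was 91.4 ± 76.7 for Gbp2 and 88.5 ± 76.7 for Igtp (SD, n = 3), and no neighbors in the order of means differed beyond their spread. In AAV-GFP mice, Gbp3 (4.23 ± 1.32, SD, n = 3) and Igtp (3.85 ± 0.498, SD, n = 3) were highest per kb, and Iigp1 (0.993 ± 0.860, SD, n = 3) and Ifi47 (0.129 ± 0.224, SD, n = 3) lowest.

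As a ratio to the AAV-GFP mean, the signal of the members in replicate 1 labelled obese was between 24.0 (Irgm1) and 73.3 (Gbp2) for the 8 members other than Ifi47. In replicate 3 it was between 11.4 (Gbp7) and 69.7 (Gbp2). The AAV-GFP mean of Ifi47 was below the floor of 3 reads per library, and against the largest such floor Ifi47 was at least 81.2-fold higher in replicate 1 and at least 61.8-fold higher in replicate 3. With Ifi47 at its bound, the medians of the 9 members were 38.7, 1.01 and 28.3 in replicates 1, 2 and 3. There, Ifi47, Gbp3 and Gm43302 were above all AAV-GFP mice, 5 members were within their range and Irgm1 was below it. Over all entries tested, replicate 2 was above all AAV-GFP mice for 29.1% and below them for 31.7%, so 3 and 1 of 9 members are near what entries in general did.

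For the group of mice labelled obese against AAV-GFP, the log2 fold change (log2 FC, on the log2(signal + 1) scale, which understates changes of low genes) was 5.17 for Gm43302 (SE 0.91), 4.52 for Ifi47 (SE 0.93) and 4.39 for Gbp2 (SE 0.999). It was between 2.25 (Irgm1, SE 1.01) and 3.54 (Iigp1, SE 1.12) for the other 6, and the median of the 9 was 3.29. The fitted value of Ifi47 depends on the pseudocount. On recovered reads the median was 4.52 with both edgeR tests and 4.55 with DESeq2. Of the 9 members, 4 were called higher at a false discovery rate (FDR) under 0.1 from limma (Ifi47, Gbp2, Gbp3 and Gm43302), beside 0.422% of entries tested. The groups did not overlap for 3 members, beside 7.18% of entries. Ifi47 passed the filter on low values through the obese-labelled libraries alone. The members were proposed with this contrast known, and nothing is read from either count. The number called was 0 without replicate 1 or without replicate 3 labelled obese, 0 without replicate 1 and 1 without replicate 3 of the AAV-GFP mice, and 8 without replicate 2 labelled obese. Over all entries the number called higher went from 57 to 5, 9, 8, 18 and 415 in the same order, so it moved too. With replicates 1 and 3 labelled obese both left out, the median log2 FC of the tested members was −0.00038 and 0 were called.

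The mice labelled nonobese carry Cre as well, and the members were tested in them against AAV-GFP. This contrast uses the same AAV-GFP mice as the one above and its results were known too, so it is not independent evidence. Ifi47 passed the filter on low values through the obese-labelled libraries alone and is left out here. Of the other 8 GTPases, 0 passed an FDR under 0.1 (limma, FDR = 0.999 for each), where 0.0074% of entries passed in each direction. The count was also 0 with edgeR's quasi-likelihood and likelihood ratio tests and with DESeq2 on recovered reads. At an unadjusted p under 0.05 there was 1 member, Gbp7, against 1.23% of entries in its direction. Its log2 FC was −2.14 (SE 0.83, 95% CI −3.85 to −0.42, unadjusted p = 0.0169 from limma), and 2 of the 3 mice were under the AAV-GFP range (exact permutation test, p = 0.2, 2-sided, over 3 and 3 mice). Igtp had a log2 FC of −1.71 (SE 0.87, 95% CI −3.51 to 0.08, unadjusted p = 0.0609 from limma). The SEs and intervals of this contrast use a spread estimated over all 9 libraries, including the obese-labelled mice, which differed widely from each other. They thus hold spread from outside the 2 groups compared. All 3 nonobese mice were below all AAV-GFP mice for Igtp, as for 5.15% of entries (exact permutation test, p = 0.1, 2-sided, over 3 and 3 mice, and no smaller p is possible).

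The other members had intervals, from the same shared spread, that span 0. They were −1.22 for Iigp1 (95% CI −3.53 to 1.09), −0.66 for Gbp2 (−2.72 to 1.40), −0.42 for Gbp3 (−1.81 to 0.97), −0.20 for Irgm2 (−2.42 to 2.02), 0.16 for Irgm1 (−1.92 to 2.25) and 0.57 for Gm43302 (−1.31 to 2.45). The upper end of each interval was below the difference of replicates 1 and 3 labelled obese from the AAV-GFP mean of that gene, and smaller changes in either direction are inside it. For Ifi47 no fold is given, since it had 0 reads in all nonobese mice and 5 reads in a single AAV-GFP mouse. The median over the 8 members was −0.54.

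**Figure D3:**
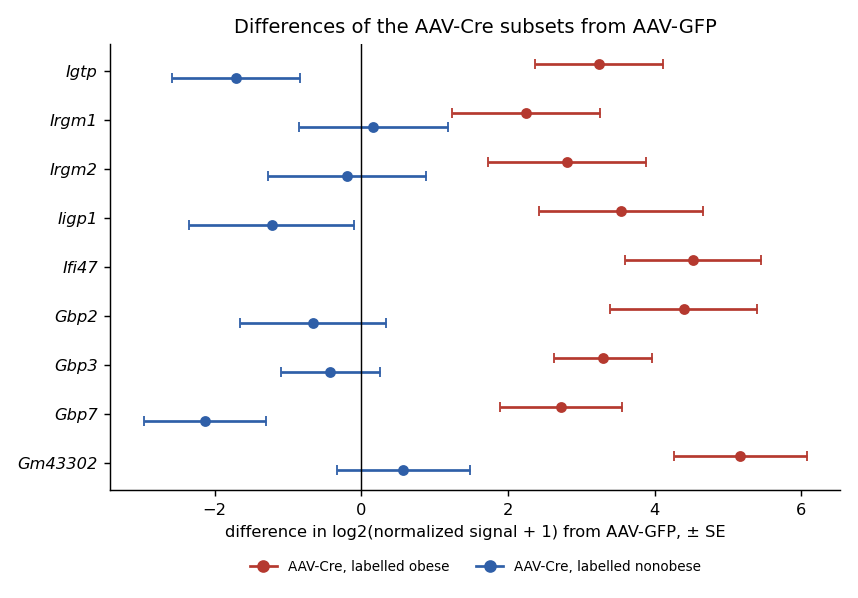
Difference in log2(normalized signal + 1) from AAV-GFP (horizontal axis, points with ± SE) of each GTPase in AAV-Cre mice labelled obese (red) and nonobese (blue), 3 mice per group. Red points run from 2.25 to 5.17 and blue points from −2.14 to 0.57, with no blue point for Ifi47, which had 0 reads in the nonobese mice.

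Between the AAV-Cre subsets, the log2 FC from obese to nonobese was between −5.05 (Gbp2, SE 0.999) and −2.08 (Irgm1, SE 1.01). Ifi47 was at least 48.4-fold higher in mice labelled obese, taken as the group mean against the largest 3-read floor of a nonobese library. Of the 9 members, 7 were called lower in nonobese mice (limma, FDR under 0.1), all but Irgm1 and Irgm2, beside 0.733% of entries, again a description since the obese mice chose the genes. Among those called, Ifi47 passed the filter on low values through the obese-labelled libraries alone. The number called was 0 without replicate 1 or without replicate 3 labelled obese, where 1 and 2 of all entries were called lower. With all 6 AAV-Cre mice pooled and set against AAV-GFP, which share the same controls, 0 of 9 were called higher (limma), beside 0.0148% of entries, 1 had an unadjusted p under 0.05 beside 1.81% of entries (Gm43302, log2 FC 2.87, SE 1.16), and the median was 1.30 (on recovered reads, 3.53 and 3.54 with the edgeR tests and 3.57 with DESeq2).

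Replicates 1 and 3 labelled obese also differed from each other in these genes. The signal of replicate 1 was higher than that of replicate 3 for 9 of 9 members, beside 49.8% of entries tested. The ratio was between 1.05 (Gbp2) and 2.18 (Gbp7), with a median of 1.31. Among 12687 entries with at least 20 reads over these 2 libraries, the median ratio was 0.998 and the quartiles were 0.689 and 1.44. The 95% counting interval (exact binomial) was above 1 for 8 members, beside 32.0% of those entries, and 6 of the 9 ratios lay between the quartiles. The interval narrows with reads. Each member had at least 199 reads in each library, while entries entered from 20 over both, so the 2 shares are not at like depth. The intervals above 1 included Gbp7 (1.99 to 2.38), Irgm2 (1.58 to 2.02) and Gm43302 (1.40 to 1.67). For Gbp2 it spanned 1 (0.98 to 1.13). The neighbors Gbp2, Gbp3 and Gbp7 thus had unequal ratios, with Gbp3 at 1.11 (1.03 to 1.19), in a single pair of mice.

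Of 16 interferon-γ targets outside the GTPases, 10 had a ratio above 1 and 6 below it. Among single genes picked after their values were seen, the ratio of replicate 1 to replicate 3 was 0.514 for the immunoglobulin chain Igkc, 0.668 for Jchain and 0.402 for Ciita, the activator of MHC class II genes. It was 2.62 for Cd274, the ligand of PD-1, 2.04 for the chemokine Cxcl9 and 1.93 for Irf1.

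**Figure D4:**
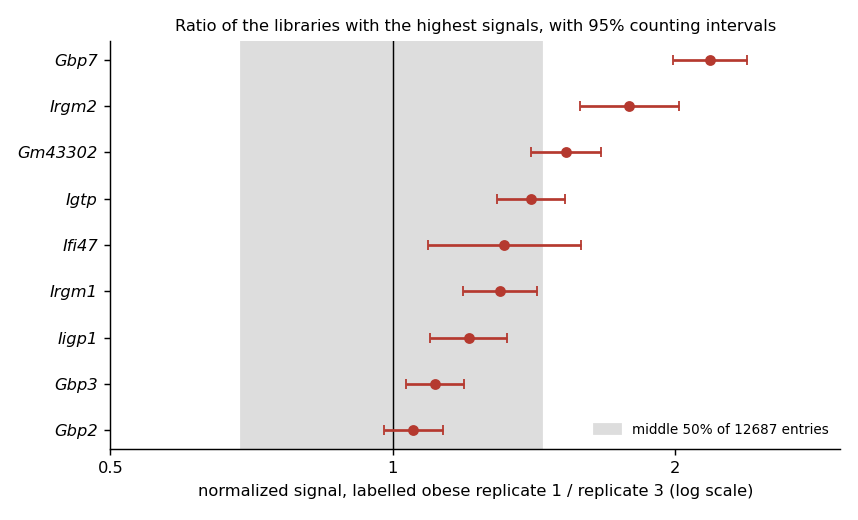
Ratio of normalized signal in replicate 1 to replicate 3 of the AAV-Cre mice labelled obese (horizontal axis, log scale) for each GTPase, with 95% counting intervals, and the middle 50% of 12687 entries shaded. All points are above 1, from 1.05 for Gbp2 to 2.18 for Gbp7.

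Other genes of both families followed in part. Of 19 listed, 13 had an entry and 11 were tested. In mice labelled obese 0 were called (limma), while 6 had an unadjusted p under 0.05, all higher, beside 5.11% of entries, and edgeR's quasi-likelihood test and DESeq2 called 4 and edgeR's likelihood ratio test 5. The median log2 FC was 2.14. For 8 of the 11, replicates 1 and 3 labelled obese were above the other 7 libraries, beside 9.34% of entries. Gbp8 had 501 and 319 reads in these 2 libraries, 0 in replicate 2, and at most 3 in each AAV-GFP mouse, so its mean was at least 83.3-fold higher in mice labelled obese, a bound that those 2 libraries carry. Gbp4 (log2 FC 3.92, SE 1.26), Tgtp2 (4.01, SE 1.27), Gbp2b (2.95, SE 0.96), Gm4951 (2.82, SE 1.09), F830016B08Rik (2.14, SE 0.55), Gm12185 (1.95, SE 1.11) and Gbp9 (1.82, SE 0.99) had FDRs between 0.106 and 0.58.

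F830016B08Rik alone among the tested genes had groups that did not overlap, as 7.18% of all entries did in this direction. Its signal was 77.2, 25.6 and 78.3 in the obese-labelled mice against 15.5, 7.85 and 12.2 in AAV-GFP mice. The log2 FC was smaller for the others. Irgq had a log2 FC of 0.08 (SE 0.28) and 9930111J21Rik2 of 0.37 (SE 0.26), and for Gm5431 it was 0.44 (SE 0.90). Tgtp1 and Gbp11 did not pass the filter. The signal of Gbp11 was 14.6, 0 and 6.27 in the obese-labelled mice and 0 in AAV-GFP mice, which makes its mean at least 9.31-fold higher. That bound rests on 65 and 27 reads in replicates 1 and 3. Tgtp1, which is nearly identical to Tgtp2, had a signal of 7.42, 0 and 6.51 in the obese-labelled mice.

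The receptor and signalling genes of interferon-γ were mixed. The gene of interferon-γ itself, Ifng, had no entry. The transcription factor Irf1 rose in mice labelled obese (log2 FC 3.10, SE 0.71, FDR = 0.0563 from limma). Its signal was 154.1, 15.4 and 79.7 in the obese-labelled mice against 6.98, 2.68 and 10.1 in AAV-GFP mice, and the groups did not overlap. The receptor chains Ifngr1 (0.46, SE 0.67) and Ifngr2 (−0.29, SE 0.44), the kinases Jak1 (0.23, SE 0.20) and Jak2 (0.53, SE 0.35), the factor Irf8 (1.89, SE 0.98) and the negative regulators Socs1 (1.78, SE 1.05) and Ptpn2 (0.49, SE 0.47) did not pass (FDR from 0.543 to 0.874). The list median was 0.53.

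Of 15 tested interferon-γ targets outside the GTPases, 5 rose in mice labelled obese (Nlrc5, Psmb8, Psme1, B2m and Cd274, limma, FDR under 0.1), beside 0.422% of entries. Their median log2 FC over the 15 was 2.83. For all 15, replicates 1 and 3 were above the other 7 libraries, beside 9.34% of entries. Psmb9 and Serpina3g passed the filter on low values only with the help of these libraries. Nlrc5, the activator of MHC class I genes, had a log2 FC of 3.70 (SE 0.89, FDR = 0.0687 from limma). Ciita (2.83, SE 1.03) and the chemokines Cxcl9 (2.38, SE 1.16) and Cxcl10 (3.21, SE 1.21) did not pass, with FDRs from 0.319 to 0.508 (limma). Ciita was called by DESeq2 and by edgeR's likelihood ratio test, and Cxcl9 by the latter.

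Of 8 type I interferon receptor and signalling genes, Irf7 rose (2.99, SE 0.68, FDR = 0.0559 from limma), while Ifnar1 (0.04, SE 0.42), Ifnar2 (0.74, SE 0.56), Tyk2 (0.39, SE 0.61) and Stat2 (1.61, SE 0.68) did not pass with limma. DESeq2 and edgeR's likelihood ratio test called Stat2. Of 13 effector genes, Oasl2 (3.08, SE 0.74) and Ifi44 (3.94, SE 0.91) rose (limma, FDR = 0.0716 and 0.0563), and the median was 1.95. Isg15 (1.92, SE 0.80), Ifit1 (2.91, SE 1.002), Ifit2 (2.28, SE 0.59) and Ifit3 (1.63, SE 0.96) did not pass with limma. Ifit2 was called by DESeq2 and by edgeR's likelihood ratio test, and Ifit1 by the latter. The 13 genes of vacuole targeting and ATG8 conjugation had a median log2 FC of 0.08 and 0 calls by any of the 4 tests (1 lower and 0 higher at an unadjusted p under 0.05 from limma, beside 4.78% and 5.11% of entries). Among them were Atg3 (0.04, SE 0.28), Atg5 (−0.11, SE 0.41), Atg7 (0.57, SE 0.51) and Atg12 (0.12, SE 0.43). Trim21, a cytosolic antibody receptor singled out after its values were seen, was the exception in pattern, with 75.1, 0 and 31.6 in the obese-labelled mice and at most 4.596 elsewhere (log2 FC 1.67, SE 1.09). Over these 6 pathway lists 10 genes were called in mice labelled obese, which became 0 without replicate 1 or 3 labelled obese or without replicate 1 or 3 of the AAV-GFP mice, and 42 without replicate 2 labelled obese. Over all entries the number called higher went from 57 to 5, 9, 8, 18 and 415 in the same order.

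In mice labelled nonobese, 0 genes of these 6 lists were called against AAV-GFP by limma, by either edgeR test or by DESeq2, and 0 had an unadjusted p under 0.05 from limma. The list medians were between −0.81 (type I effectors) and 0.09 (other IRG and GBP genes).

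**Figure D5:**
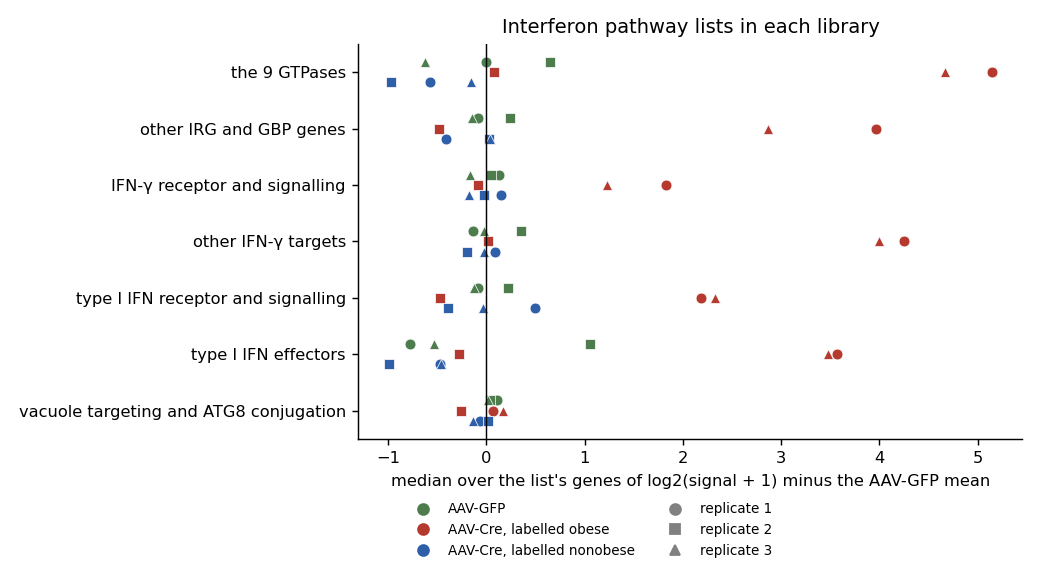
Median over the genes of each list of log2(signal + 1) minus its AAV-GFP mean (horizontal axis), in each library, with colors for groups and symbols for replicates. For the 9 GTPases the medians are 5.15, 0.08 and 4.66 in replicates 1, 2 and 3 labelled obese, and those of the genes of vacuole targeting and ATG8 conjugation are between −0.25 and 0.17 in all libraries, while single genes of that list reach 4.17.

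The 10 entries whose pattern over the 9 libraries was most like the mean of the members were Itgal, H2-Q6, Psmb9, H2-K1, Ly6c2, Cd3g, H2-M2, Myo1g, Gm12250 and Serpina3f. Likeness was the root mean square difference in log2(signal + 1) after taking off each gene's AAV-GFP mean, and it was 0.526 to 0.679 for these, 0.540 (Gbp3) to 1.49 (Gm43302) for the members, and 2.55 at the median of 13579 other entries. Itgal, an integrin chain of leukocytes, reached 39.6, 0 and 30.4 in the obese-labelled mice and at most 0.383 in the other libraries. H2-K1, an MHC class I heavy chain, had 813.6, 58.1 and 762.3 in the obese-labelled mice and between 10.2 and 33.9 elsewhere. Cd3g, a chain of the T cell receptor complex, had 139, 0 and 120 reads in mice labelled obese and at most 5 in each other library.

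The summed signals of T and NK, B and plasma, general leukocyte and microglial markers were highest in replicates 1 and 3 labelled obese. Single markers on these lists did not all follow. The summed signal of 5 T and NK cell markers with an entry was 114.7, 5.67 and 63.4 in replicates 1, 2 and 3 labelled obese, 4.24 to 4.98 in AAV-GFP mice and 1.07 to 2.88 in mice labelled nonobese. Cd4, Nkg7, Klrd1 and Gzmb had no entry. That of 4 B and plasma cell markers was 2605, 65.4 and 4844 in mice labelled obese, 0.383 to 1.496 in AAV-GFP mice and 19.6 to 37.6 in mice labelled nonobese, and Cd79b and Ms4a1 had no entry. Of the T and NK and the B and plasma cell lists, 0 of 3 (1 at an unadjusted p under 0.05) and 2 of 2 tested markers were called in mice labelled obese (limma). Over all entries tested, 0.422% were called higher and 5.11% were higher at an unadjusted p under 0.05. In the nonobese mice Igkc (18.5 to 30.5) and Jchain (1.05 to 7.04) were above every AAV-GFP mouse, and Cd79a and Mzb1 had 0 reads in all 3. Of the T and NK list, Cd3e, Cd3g, Cd8a and Il2rb were highest in replicates 1 and 3 labelled obese. Cd3d was not, with 4.95, 5.67 and 5.58 in replicates 1, 2 and 3 labelled obese.

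Among other cell types, 5 general leukocyte markers summed to 217.8, 43.1 and 215.4 in mice labelled obese (41.6 to 57.3 in AAV-GFP mice, 17.1 to 47.9 in nonobese mice), and 7 microglial markers to 482.6, 117.1 and 359.9 (119.2 to 144.9 and 95.1 to 141.9), with 0 of 5 and 0 of 7 called (limma, 3 and 2 at an unadjusted p under 0.05). Over all entries tested, 0.422% were called higher, and 5.11% were higher and 4.78% lower at an unadjusted p under 0.05. All but 3 of these leukocyte and microglial markers were highest in replicates 1 and 3 labelled obese. Coro1a had 18.7 and 24.9 there, against 21.4 to 34.9 in AAV-GFP mice. In replicate 3, P2ry12 (7.20) was below the AAV-GFP range and Sall1 (23.2) was within it. In replicate 1, P2ry12 was within that range. Of 6 astrocyte markers, Gfap (log2 FC 3.03, FDR = 0.0119 from limma) and Aqp4 (1.19, FDR = 0.0559 from limma) rose. Gfap was 369.0, 129.8 and 640.1 in replicates 1, 2 and 3, against 10.1 to 83.0 in AAV-GFP mice. Slc1a3 and Aldh1l1 were above the AAV-GFP range in all 3, and Slc1a2 was within it in all 3. Gja1 was above it in replicates 1 and 3 only. The astrocyte markers summed to 2514, 2260 and 3014 (1921 to 2343 and 1748 to 2361). Endothelial markers summed to 126.9, 132.1 and 168.0 (64.8 to 104.4 and 83.4 to 106.6), and red blood cell markers to 12.8, 5.90 and 25.8 (15.7 to 28.9 and 22.8 to 36.7). Neuronal markers summed to 1538, 2065 and 1487 (1834 to 1943 and 2117 to 2198), and oligodendrocyte markers to 983.0, 764.4 and 907.9 (1097 to 1668 and 1096 to 2429), with 0 called for either (limma, 1 of 5 and 4 of 5 lower at an unadjusted p under 0.05, beside 4.78% of entries). The part of these cells in the level of the GTPases was not tested.

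Of the 8 mediobasal hypothalamus markers, all had an entry and 0 were called (limma, 0 at an unadjusted p under 0.05). They summed to 150.7, 359.7 and 52.3 in mice labelled obese (88.8 to 364.8 in AAV-GFP mice, 132.1 to 333.2 in nonobese mice). Ghrh was highest in replicate 1 labelled obese (27.0, against at most 17.2 elsewhere). Npy, Pomc and Tbx3 were within the AAV-GFP range in replicate 1 labelled obese and below it in replicate 3, and Nkx2-1 was below it in both. Agrp, a neuropeptide of arcuate neurons, had 0 reads in obese-labelled replicates 1 and 3, and 12 to 68 elsewhere. Nr5a1, a factor of the ventromedial nucleus, had 0 reads in the same pair and also in AAV-GFP replicate 3 and nonobese replicate 3, whose summed member signals were 36.3 and 53.3. Those of replicates 1 and 3 labelled obese were 2407 and 1780. The signal of Cre in this pair, 1330 and 234.9, was below that of every other AAV-Cre library, where it was at least 4644. The part of the captured region and of the amount of Cre in the level of the GTPases was not tested.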

How the data were processed

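Laser-captured mediobasal hypothalamus of 9 mice was sequenced, 1 library per mouse, with the SMARTer Stranded Pico kit. The submitters' processing notes name CASAVA 1.7, TopHat2 2.0.11, HTSeq, edgeR, limma and GRCm38. Whether strand was used in counting is not given in the sources used here. The deposited values are normalized signal: the authors scaled the reads of each gene by a library size corrected with TMM. Whole reads were recovered from their steps for 100% of values (tolerance 0.01). Log2(signal + 1) was fitted over all 9 libraries with limma 3.58.1 (R 4.3.3, variance trend), for 13506 entries with a signal of 1 or more in at least 3 libraries, and FDRs were adjusted over all of them (threshold 0.1). Alternatives were other pseudocounts, filters and thresholds, a replicate block, single libraries left out, and edgeR 4.0.16 and DESeq2 1.42.0 on recovered reads.

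The members and gene lists were chosen with earlier results of these data known. All members are named, along with listed pathway genes by role, and the 10 entries nearest in pattern. A total of 13446 entries matched a symbol. Some listed genes are not reported here.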

Additional observations from a re-analysis of the deposited data

Results flagged for a closer look

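The 2 AAV-Cre subsets differed in their distance from the shared AAV-GFP mice for 7 GTPases (limma, difference between the subsets at an FDR under 0.1), beside 0.733% of entries. The log2 FC from obese to nonobese labels was −5.05 for Gbp2, −4.96 for Igtp, −4.85 for Gbp7, −4.84 for Ifi47, −4.76 for Iigp1, −4.59 for Gm43302 and −3.72 for Gbp3. The genes were chosen with the mice labelled obese known, and Ifi47 passed the filter on low values through them alone, so these are descriptions. Replicates 1 and 3 labelled obese carry them, and without either of these 0 were called, with Ifi47 then not tested.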

How the results depend on the processing

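The number of GTPases called higher in mice labelled obese than in AAV-GFP mice (4) was 2 with a pseudocount of 0.1, 0 without the variance trend, 7 with the replicate number as a block, 7 with edgeR's quasi-likelihood test, 9 with its likelihood ratio test, 0 without replicates 1 and 3 labelled obese, and 0 to 8 with 1 library left out. The pathway genes called (10) became 2 with a pseudocount of 0.1, 17 with a pseudocount of 5, 0 without the variance trend, 19 with the replicate block, 2 at an FDR of 0.05, 26 with the likelihood ratio test, 19 with DESeq2, 0 without that pair, and 0 to 42 with 1 library left out. The median log2 FC (3.29) was 4.52, 4.52 and 4.55 with edgeR's 2 tests and DESeq2, −0.00038 without the pair and 2.39 to 4.78 with 1 library left out. Calls over all entries moved as well. The number called higher (57) was 24 with a pseudocount of 0.1, 3 without the variance trend and 137 with the block. It was 78 and 206 with edgeR's 2 tests, 217 with DESeq2 and 5 to 415 with 1 library left out. Between the subsets, the GTPases called lower in nonobese mice (7) were 4 with a pseudocount of 0.1, 1 without the variance trend, 0 without the pair and 0 to 8 with 1 library left out. Their median (−4.76) was −5.57 and −3.52 with pseudocounts of 0.1 and 5, −5.42, −5.38 and −5.44 with edgeR's 2 tests and DESeq2, −1.23 without the pair, and −5.97 to −3.79 with 1 library left out. Over all entries, the number called lower in nonobese mice (99) was 56 with a pseudocount of 0.1 and 12 without the variance trend. It was 1 to 557 with 1 library left out. For all AAV-Cre mice the median (1.30) was 3.53, 3.54 and 3.57 with the same tools, −0.36 without the pair and 0.55 to 1.78 with 1 library left out, and 0 were called throughout.

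In nonobese against AAV-GFP mice, the median of all 9 (−0.42) was −0.54 with only these groups fitted, where Ifi47 did not pass the filter, −1.02 with a pseudocount of 0.1, −0.69, −0.66 and −0.66 with edgeR's 2 tests and DESeq2, and −0.72 to −0.06 with 1 library left out. Directions reversed for Irgm2 (0.15, 0.11 and 0.098 with edgeR's 2 tests and DESeq2, −1.04 to 0.96 with 1 library left out), for Gm43302 (−0.42, −0.35 and −0.34, and −0.23 to 1.78), and for Irgm1 (−0.19 to 0.61). The cause was not tested. The fitted value of Ifi47, which is not read as a change, was −0.48 at the lowest and 0.0 without AAV-GFP replicate 2, the library with all its reads in these groups. The deviations of same-numbered libraries had correlations of −0.020 to 0.090 (0 of 9 pairs over 0.1), against −0.088 to 0.040 for other pairs. Values this small cannot decide whether the numbers pair the mice. Depth limits members with few reads, such as Ifi47. Restricting the fit to the groups compared gives no separate value for all AAV-Cre mice.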
